A study of Triticum aestivum with 12 samples.

Results

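Of the 61179 wheat probe sets tested, 84 (0.137%) gave a clearly lower signal in roots of Pavon-TL than in roots of both other genotypes. They were chosen by a rule on the measured values themselves. The mean of the 4 Pavon-TL arrays had to lie at least 1 log2 unit (2-fold) below the mean of the 4 Pavon76 arrays and at least 1 below the mean of the 4 Null Control arrays. In addition, the highest Pavon-TL array had to lie below the lowest of the 8 other arrays. Affymetrix control probe sets and 1 transcript cluster named in the rule were left out. Because the values chose the probe sets, Pavon-TL against the other genotypes is given for them as a description, with no test.

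A probe set is a group of short probes on the array that together read 1 transcript or several related ones, and its deposited value is a log2 signal computed by RMA. Bread wheat carries several related subgenomes, so most genes have near-identical copies, called homoeologues, and a probe set may read one copy or several. In a translocation line a stretch of a wheat chromosome is replaced by the matching stretch of a relative. The wheat copies of genes in that stretch are then missing, while the relative's copies may differ in the bases that the probes read. A low signal can therefore mean less transcript or a transcript that matches the probes less well, and these cannot be told apart from array values. In whole roots, fewer cells of a type and less RNA per cell cannot be told apart either.

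The arrays measured total RNA from roots of 18-day-old seedlings grown in sand, 1 array per sample and 2 arrays in each of 6 groups. Pavon-TL under water stress and under well water was set against Pavon76 under both conditions and Null Control under both conditions. Water stress meant watering every second day and well water meant daily watering. The labels name the genotypes only. General knowledge of this material adds that Pavon76 is a wheat cultivar and Pavon-TL a line derived from it by translocation, with a chromosome segment of a wild wheatgrass relative. Null Control is not described, and whether both arrays in a group stand for different plants is not stated. The p-values below therefore measure the spread between these arrays, which may be technical. All values below are on the log2 scale unless a fold is named.

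The 12 arrays had medians between 5.89 and 5.93, and arrays sharing a replicate number deviated together. Tissue markers were looked up for the root label. The 3 probe sets of DMAS1, an enzyme of iron-chelator synthesis in grass roots, had genotype means between 9.34 and 10.8. The 30 leaf marker probe sets had a median of 3.82 in Pavon-TL, 3.76 in Pavon76 and 3.71 in Null Control, but ran up to 11.9 in Pavon-TL, 12.0 in Pavon76 and 11.9 in Null Control in an rbcl probe set (the large subunit of the chloroplast enzyme Rubisco). The 13 grain marker probe sets had a median of 4.23 in Pavon-TL, 4.11 in Pavon76 and 4.10 in Null Control. The highest of these was GLU1A, at 10.9 in Pavon-TL, 11.5 in Pavon76 and 11.1 in Null Control. The list took it in by its symbol alone, so it may not be a grain gene. Levels of different probe sets are not comparable, and these lists do not settle the tissue. None of these marker probe sets was among the 84. Their differences between Pavon-TL and the other genotypes ran from -0.39, in GLU1A, to 0.20.

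The 84 probe sets spanned the scale of the arrays. The mean over the Pavon-TL arrays lay below the median of all values on the arrays, 5.91, in 58 of them, and below the first quartile, 4.34, in 20. The mean over the 8 other arrays lay below that median in 6 and above the third quartile, 7.98, in 49. In 52 of the 84 the Pavon-TL mean lay below that median and the mean of the others above it, and in 29 the Pavon-TL mean lay below the median and the mean of the others above the third quartile. Probes bind with different strength, so these positions describe the scale of the arrays and do not rank transcripts. Pavon-TL minus the mean of the other arrays had a median of -2.42 over the 84 probe sets, a 5.33-fold lower signal, and 0.00 over all probe sets. The median difference was -2.44 against Pavon76 and -2.38 against Null Control.

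**Figure D1:**
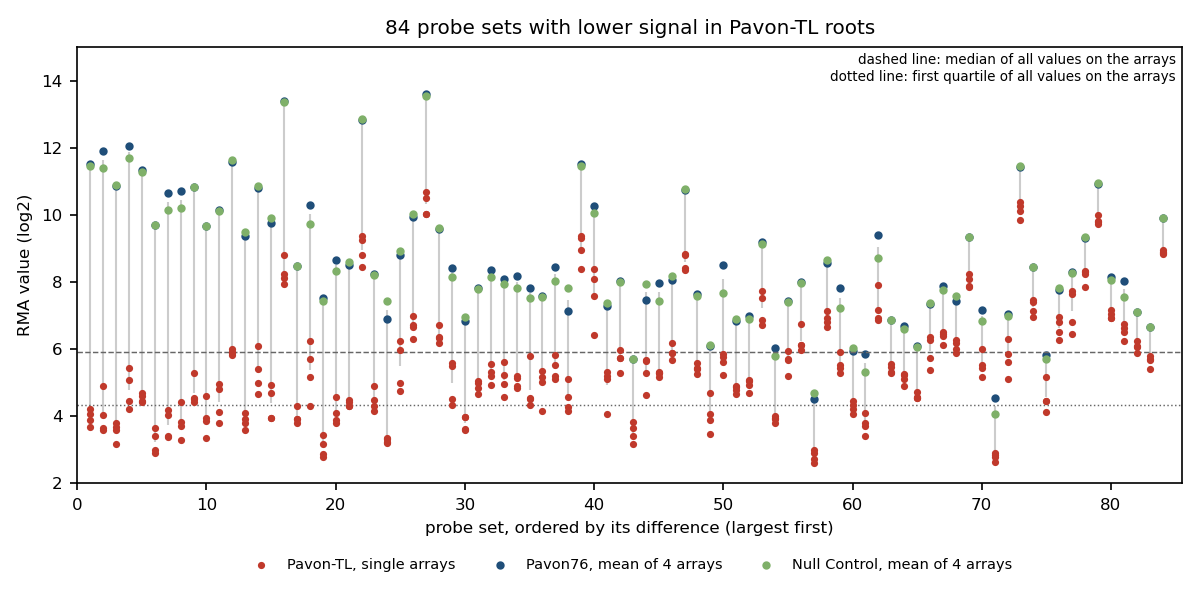
Signal of the 84 probe sets on the log2 RMA scale, ordered by the size of the difference (largest at left). Red points are the 4 single Pavon-TL arrays, blue and green points the means of 4 Pavon76 and 4 Null Control arrays. In every column the red points lie below both means, and their average lies at least 4 units below them in the leftmost 21 columns and little more than 1 unit below at the right.

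The same rule found far fewer probe sets in the other genotypes. It was met by 9 probe sets for Pavon76 as the lowest genotype and by 1 for Null Control. Turned round, it found 10 probe sets higher in Pavon-TL, 9 higher in Pavon76 and 0 higher in Null Control. The condition on single arrays alone, without a size, was met by 246 probe sets for Pavon-TL as the lowest genotype, 0.402% of those tested. In Pavon-TL, 1 further probe set met both conditions but belonged to the cluster that the rule leaves out, and is not counted among the 84.

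The smaller of the 2 differences from Pavon76 and Null Control ran from 1.01 to 7.51, and it was used to order the probe sets. It was at least 4 in 21 probe sets, between 2 and 4 in 30 and between 1 and 2 in 33. In the group of 21, the Pavon-TL means ran from 3.07 to 8.28 and the means of the other arrays from 7.48 to 13.38. In 20 of those 21 the Pavon-TL mean lay below the median of all values, the exception being Ta.5399.2.S1_at. The gap between the highest Pavon-TL array and the lowest other array ran there from 2.92 to 6.66. In the group of 30 the gap ran from 0.80 to 3.24, and in the group of 33 from 0.09 to 1.42.

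The largest difference belonged to Ta.25043.1.S1_at. It read 3.87 and 4.07 under water stress and 4.20 and 3.67 under well water in Pavon-TL. In Pavon76 it read 11.40 and 11.71 under water stress and 11.76 and 11.23 under well water, and in Null Control 11.43, 10.86, 11.78 and 11.77 in the same order. All 4 Pavon-TL arrays lay within 1 unit of each other near the bottom of the scale, and all 8 others lay above 10. The Pavon-TL mean was 3.95 ± 0.23 (SD, n = 4), against 11.49 ± 0.33 over the other arrays (SD, n = 8), a 186-fold lower signal.

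TaAffx.79196.1.S1_at, with a 194-fold lower signal, had the largest fold against the mean of both genotypes. Its Pavon-TL arrays read 4.04 and 3.65 under water stress and 4.90 and 3.58 under well water. Pavon76 read 11.93, 12.27, 11.33 and 12.05, and Null Control 11.19, 11.17, 10.91 and 12.26, in the same order. One well-watered Null Control array stood about 1 unit above the other 3 of its genotype, at the Pavon76 level.

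Ta.18949.1.S1_at showed the same arrangement. It read 5.09, 4.22, 5.42 and 4.44 in Pavon-TL, first under water stress and then under well water, against 12.01, 12.50, 11.66 and 12.07 in Pavon76. Null Control read 11.49, 11.45, 11.41 and 12.45, again with the second well-watered array high. The signal in Pavon-TL was 136-fold lower, and its 4 arrays spread more widely (SD 0.56) than the 4 Pavon76 arrays (SD 0.34).

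Ta.16236.1.S1_at was among the most even. Its Pavon-TL arrays read 4.45, 4.71, 4.42 and 4.59, against 11.39, 11.51, 11.20 and 11.27 in Pavon76 and 10.93, 11.70, 11.36 and 11.10 in Null Control. The 109-fold lower signal in Pavon-TL came with an SD of 0.13 over its 4 arrays.

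TaAffx.128836 was read by a pair of probe sets for the same target. The unique one, TaAffx.128836.1.S1_at, read 3.65, 2.92, 3.0 and 3.41 in Pavon-TL, 9.76, 9.74, 9.82 and 9.46 in Pavon76 and 9.93, 9.59, 9.83 and 9.48 in Null Control, an 87.9-fold lower signal in Pavon-TL. TaAffx.128836.1.S1_x_at, some of whose probes also resemble unrelated sequences, was 52.6-fold lower in Pavon-TL. Its Pavon-TL arrays ran from 3.35 to 4.61, while the other 8 ran from 9.40 to 9.86.

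The cluster Ta.994 held 3 of the 84 probe sets, more than any other. Ta.994.1.S1_at read 4.18, 3.41, 3.37 and 4.03 in Pavon-TL, against 10.89, 10.61, 10.34 and 10.76 in Pavon76 and 9.91, 9.69, 9.80 and 11.16 in Null Control, a 100.1-fold lower signal. Ta.994.1.S1_x_at followed it closely, at a 99.7-fold lower signal. Ta.994.3.S1_x_at was already dim in the other genotypes, at 4.54 ± 0.27 in Pavon76 and 4.08 ± 0.47 in Null Control (SD, n = 4 each). In Pavon-TL it read 2.85, 2.79, 2.90 and 2.65, the lowest mean of any of the 84, 2.80 ± 0.11 (SD, n = 4).

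**Figure D2:**
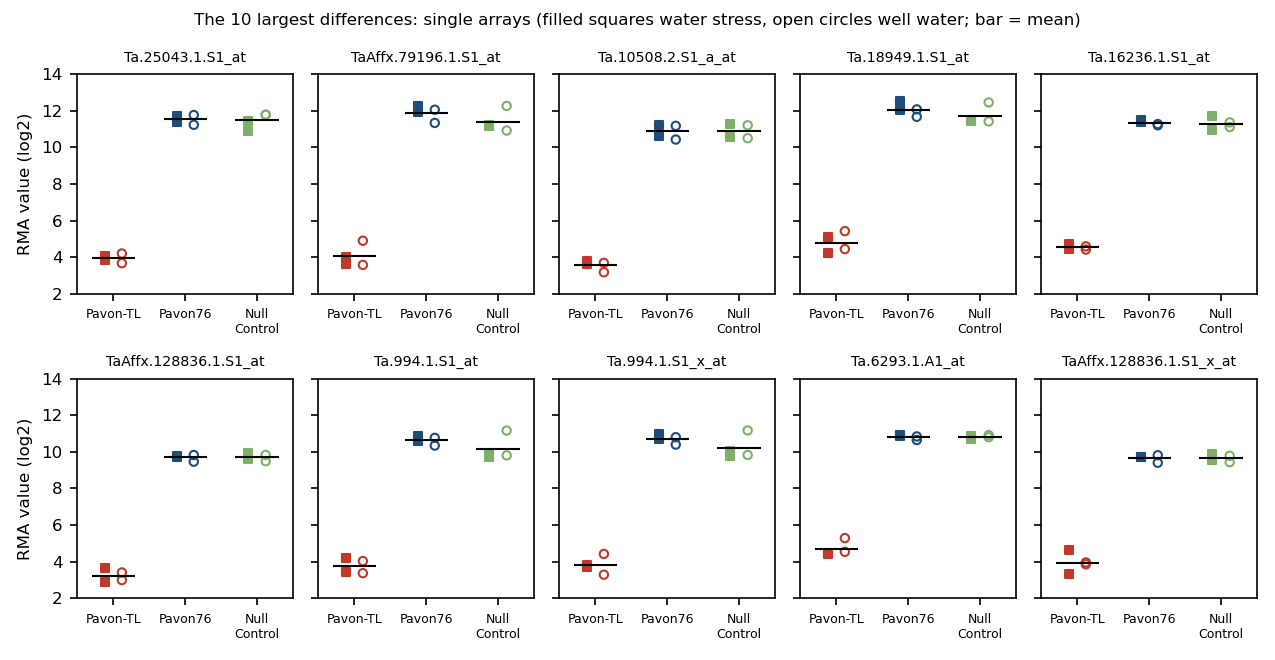
Single arrays of the 10 probe sets with the largest differences, with Pavon-TL left, Pavon76 in the middle and Null Control right. The vertical axis is the log2 RMA value, filled squares are water stress, open circles well water, and bars are means of 4 arrays. Pavon-TL stays below 6 in all 10 panels and the other genotypes stay above 9.

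Low signal in Pavon-TL did not always mean a value at the bottom of the scale. Ta.5399.2.S1_at read 8.12, 8.23, 7.95 and 8.82 in Pavon-TL, while the other 8 arrays averaged 13.38 ± 0.21 (SD, n = 8), a 34.3-fold lower signal. The 3 highest Pavon-TL means belonged to Ta.28713.1.S1_x_at, Ta.1055.1.S1_x_at and Ta.20778.1.A1_s_at. Ta.28713.1.S1_x_at averaged 10.31 ± 0.33 in Pavon-TL, 13.59 ± 0.09 in Pavon76 and 13.55 ± 0.17 in Null Control (SD, n = 4 each). Ta.1055.1.S1_x_at averaged 10.15 ± 0.23 in Pavon-TL, against 11.42 ± 0.15 and 11.47 ± 0.19, and Ta.20778.1.A1_s_at 9.84 ± 0.11, against 10.92 ± 0.10 and 10.95 ± 0.05, in Pavon76 and Null Control in that order. All 3 are of the kinds whose probes are shared with other sequences. At the other end, the lowest Pavon-TL means after Ta.994.3.S1_x_at were those of Ta.8687.1.A1_at, 2.81 ± 0.18, and TaAffx.105944.1.S1_s_at, 3.07 ± 0.29 (SD, n = 4).

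The arrays of a genotype spread more in these probe sets than in most. The median SD over 4 arrays was 0.28 in Pavon-TL, 0.26 in Pavon76 and 0.26 in Null Control, against 0.16, 0.15 and 0.15 over all probe sets. The widest spread in Pavon-TL was in Ta.8885.1.A1_at, which read 7.57 and 8.09 under water stress and 6.41 and 8.39 under well water. It read 10.44, 10.67, 9.49 and 10.40 in Pavon76 and 10.49, 11.15, 9.41 and 9.20 in Null Control. TaAffx.84394.1.S1_at followed with an SD of 0.82 and TaAffx.108616.1.S1_at with 0.73 over the 4 Pavon-TL arrays. Their gaps to the lowest other array, which the rule requires to be above 0, were 0.80, 2.92 and 2.28.

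The rule drew a line through a continuous range of sizes. Just inside it lay Ta.5029.2.A1_at, Ta.13642.2.S1_at and Ta.21049.1.S1_at, each with a smaller difference of 1.02, and TaAffx.38326.1.S1_at with 1.01. Just outside lay Ta.21902.1.S1_at with 0.98, Ta.28406.1.A1_s_at with 0.97, TaAffx.37226.1.S1_at with 0.96 and TaAffx.97075.1.S1_at with 0.95, all with separated arrays. Ta.11465.1.A1_at had a difference of 1.04 but overlapped, with 5.92 on its highest Pavon-TL array and 5.87 on its lowest Null Control array. Of the 246 separated probe sets, 84 are the members, 160 had a difference below 1, and 2 belonged to the cluster that the rule leaves out.

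Only 2 of the 84 probe sets, 2.38%, could be given a gene from the platform annotation, against 2.08% of all probe sets. Neither gene has a name beyond its LOC number in the tables used, so no role is given. Both had other probe sets on the array that did not share the low signal.

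The first was LOC543418, read by Ta.10508.2.S1_a_at. It read 3.60 and 3.81 under water stress and 3.69 and 3.18 under well water in Pavon-TL. Pavon76 read 10.64, 11.23, 10.42 and 11.17, and Null Control 10.55, 11.29, 10.49 and 11.20, in the same order, which made the signal in Pavon-TL 158-fold lower. The other probe set of this gene, Ta.24991.1.S1_x_at, read 14.02, 13.43, 14.05 and 13.58 in Pavon-TL, from 13.69 to 14.03 in Pavon76 and 13.98, 13.54, 14.01 and 13.85 in Null Control. The 3 genotypes overlapped there, and Pavon-TL differed from the others by -0.08.

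The second was LOC780661, read by Ta.6293.1.A1_at. Its Pavon-TL arrays read 4.43, 4.50, 4.54 and 5.29, against 10.92, 10.88, 10.84 and 10.64 in Pavon76 and 10.88, 10.72, 10.91 and 10.79 in Null Control. The other 8 arrays were very even, 10.82 ± 0.10 (SD, n = 8), and the signal in Pavon-TL was 70.2-fold lower. The annotation gave this gene 5 further probe sets, whose differences between Pavon-TL and the others ran from -0.17 (Ta.6293.3.S1_s_at and Ta.6293.2.S1_a_at) to 0.15 (Ta.6293.3.S1_a_at).

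**Figure D3:**
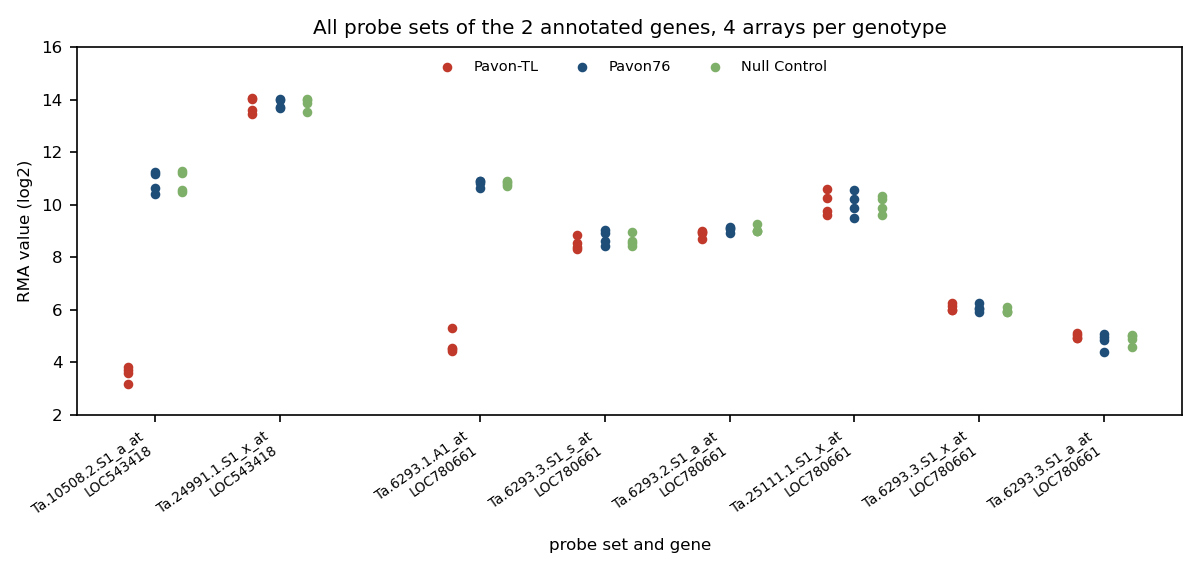
Single-array log2 RMA values of the 2 probe sets of LOC543418 and the 6 of LOC780661, with Pavon-TL left of Pavon76 and Null Control in each column. Ta.10508.2.S1_a_at and Ta.6293.1.A1_at lie 7.30 and 6.13 lower in Pavon-TL, while the genotypes overlap in the other 6.

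The measured annotated genes nearest to these on the RefSeq wheat assembly were close to 0 in the same difference. Beside LOC543418, the measured neighbours were LOC543399, with Pavon-TL minus the others at 0.03 and 0.05 in 2 probe sets, LOC543106 at 0.08 and 0.15 in 2, LOC543070 at 0.00 and COR410, a dehydrin gene, at -0.08. Beside LOC780661 they were LOC543252 at 0.02 and LOC543405 at -0.17 and -0.07 in 2 probe sets, both on one side of it, with no measured annotated gene on the other side. Annotated genes are sparse on the array and no limit was set on distance, so these neighbours may lie far away. Genes between these neighbours and the members were not seen. Neighbours were placed by the position of the annotated gene, while a member probe set may read another copy of it. Over all 1273 annotated probe sets the median difference was -0.01, 95.2% lay within 0.3 of 0. These members were the only 2 lower in Pavon-TL by at least 1 than in both other genotypes, and 1 probe set, of LOC542989, was higher by at least 1 than in both. It averaged 7.35 ± 0.90 in Pavon-TL, 5.84 ± 0.34 in Pavon76 and 5.83 ± 0.12 in Null Control (SD, n = 4 each), and was named after its values were seen.

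Most other probe sets of the same transcript clusters lay near 0, and any that met the rule would count as members. The first number of a probe set's name marks a cluster of sequences assembled together when the array was designed. The 84 probe sets came from 74 such clusters, of which 65 held 1 of them, 8 held 2 and Ta.994 held 3. For 48 of the 74 clusters, 64.9%, the array has a single probe set, against 80.6% of all clusters. In 4 clusters with several probe sets all met the rule, and in 22 some did not. The 41 probe sets of those 22 clusters that did not meet the rule had a median difference of 0.00, from -1.05 to 0.48, and 33 of them lay within 0.3 of 0. That is 80.5%, against 96.3% of all probe sets, and 4 lay below -0.5 while 0 lay above 0.5.

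Several clusters held a very low and an even probe set side by side. Ta.28713.1.S1_at was lower in Pavon-TL, with a difference of -3.88, while Ta.28713.2.S1_at averaged 13.50 ± 0.06 in Pavon-TL (SD, n = 4) and 13.53 ± 0.07 in the others (SD, n = 8). Ta.3661.1.A1_at differed by -4.49 and Ta.3661.1.A1_s_at, whose probes are shared among transcripts of different genes, by 0.20. Ta.6253.1.S1_at differed by -1.95 and Ta.6253.1.S1_a_at by -0.04.

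Among the clusters with 2 members, Ta.10531 held Ta.10531.1.S1_at at -2.41 and Ta.10531.2.S1_a_at at -1.29, while its Ta.10531.2.S1_at differed by -0.05 and Ta.10531.3.S1_at by 0.04. Ta.1055 held its 2 members at -2.15 and -1.29 and its 2 others at 0.04 and 0.03. Ta.13642 had only members, at -2.20 (Ta.13642.1.S1_a_at) and -1.03 (Ta.13642.2.S1_at). The 8 partners more than 0.3 from 0 included 6 lower in Pavon-TL, Ta.5029.2.A1_x_at at -1.05, Ta.5029.2.A1_a_at at -1.03, Ta.5399.1.S1_a_at at -0.82, TaAffx.23949.1.S1_at at -0.59, Ta.994.3.S1_at at -0.47 and Ta.19451.2.S1_at at -0.31. The other 2 were higher, Ta.5029.1.S1_at at 0.48 and Ta.20778.3.A1_a_at at 0.39. Of the 41 partners, 1, Ta.5029.2.A1_a_at, had all 4 Pavon-TL arrays below all 8 others.

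**Figure D4:**
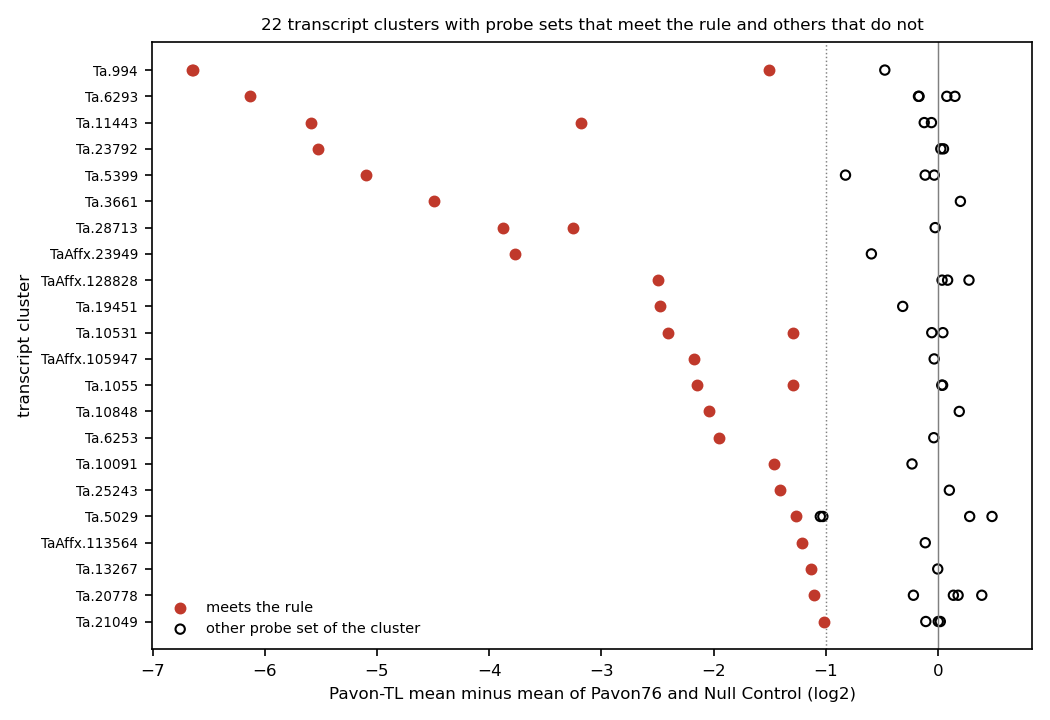
Pavon-TL mean minus the mean of Pavon76 and Null Control (log2, horizontal) for every probe set of the 22 clusters that hold members and others. Filled points meet the rule and open points do not; the dotted line marks a difference of -1. Of the 41 open points, 33 lie within 0.3 of 0 and 2 lie just past -1.

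Within a target, the probe set with shared probes mostly showed the smaller difference. For 9 targets the array has both a unique (_at) and an _x_at probe set, with at least one among the 84. The _x_at set was less reduced in 7 and more reduced in 2, and the _x_at difference minus the _at difference had a median of 0.63. The smallest of the 7 steps, in Ta.994.1.S1, was 0.006. Across all members the order was the other way, since the smaller difference from Pavon76 and Null Control had a median of 3.17 in _x_at members, 3.05 in _s_at members and 2.16 in _at members. Ta.11443.1.S1 had the widest step, with -5.59 for its _at set, -3.18 for its _x_at set and -0.12 for its _a_at set. Ta.4007.1.A1 had -4.41 for its _at set and -3.29 for its _x_at set. The 2 targets that ran the other way were Ta.994.3.S1, at -0.47 and -1.51, and TaAffx.37159.2.S1, at -1.47 and -2.08 for the _at and _x_at sets. The _at and _x_at sets of a target can share probes, and these pairs were chosen through a member, so this is a description.

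By suffix the members were close to the array as a whole, and by prefix they were not. The plain _at suffix made up 79.8% of the members and 79.2% of all probe sets, _x_at 9.52% and 11.1%, _s_at 5.95% and 4.31%, and _a_at 4.76% and 5.43%. Probe sets with the prefix Ta made up 67.9% of the members and 51.4% of all, and those with the prefix TaAffx 32.1% and 48.5%. These shares were not tested.

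Whether the low signal recurred in arrays that had not chosen the probe sets was examined by choosing in one water condition and testing in the other. The rule applied to the 6 well-watered arrays alone found 86 probe sets. In the 6 water-stressed arrays all 86 were lower in Pavon-TL, with a median difference of -2.38, against -0.01 over all probe sets. The limma fit on those 6 arrays, with Benjamini-Hochberg adjustment over all probe sets, called 49 of the 86 lower, where 0.0817% of all probe sets were called. With the replicate number as a block it called 78, where 0.173% of all were called.

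In the other direction, the rule found 89 probe sets in the 6 water-stressed arrays. All 89 were lower in Pavon-TL in the well-watered arrays, with a median difference of -2.27, against 0.01 over all probe sets. The limma fit called 34 of the 89, against 0.0572% of all probe sets, and 83 with the block, against 0.191%. Leaving out 1 tested array lowered the counts to between 18 and 28 of the 86 and between 6 and 15 of the 89, with fewer arrays in each fit. Both conditions share the plant lines, so this describes arrays of the same lines and not independent lines. Of the chosen probe sets, 78 of the 86 and 82 of the 89 also met the rule on all arrays together. The rule itself was set with earlier results of these arrays known. These counts are therefore not independent support for the members of the full rule.

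The interaction of genotype and water asked whether the low signal in Pavon-TL changed with watering. Pavon-TL minus the others had a median of -2.39 under water stress and -2.35 under well water. It was -1 or lower in 82 of the 84 under water stress and in 80 under well water. The rule had already required its average over both conditions to be -1 or lower, so these values are a description. The limma test of the interaction, the water stress difference in Pavon-TL minus that in the other genotypes, called 0 of the 84, as of all probe sets (0%), without the block and with it. An unadjusted p under 0.05 was reached by 5 of the 84, 5.95%, against 1.77% of all probe sets, and with the block by 17, 20.2%, against 4.67%.

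The members with the smallest interaction p-values were Ta.6253.1.S1_at and Ta.4007.1.A1_x_at, neither of which passed limma's adjusted threshold. Ta.6253.1.S1_at read 7.72 and 7.53 under water stress and 6.73 and 6.87 under well water in Pavon-TL. It read 9.42, 9.17, 9.03 and 9.16 in Pavon76 and 9.04, 9.09, 9.12 and 9.31 in Null Control. The interaction was 0.80 ± 0.16 (SE; limma adjusted p = 1). Ta.4007.1.A1_x_at read 5.59 and 5.51 under water stress and 4.52 and 4.33 under well water in Pavon-TL, with no overlap between the conditions. In Pavon76 it read 8.34, 8.21, 8.97 and 8.11 and in Null Control 8.11, 7.97, 8.49 and 8.03. The interaction was 1.37 ± 0.32 (SE; limma adjusted p = 1). The unique probe set of the same target, Ta.4007.1.A1_at, is also a member, and its conditions overlapped in Pavon-TL. It read 4.59 and 3.87 there under water stress and 4.09 and 3.81 under well water. Its interaction was 0.60 ± 0.40 (SE).

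The next 3 by interaction p ran the other way. They were TaAffx.73214.1.S1_at at -0.69, TaAffx.128828.1.A1_at at -0.68 and TaAffx.105944.1.S1_s_at at -0.57, none past limma's threshold. Over the 84 the interaction had a median of -0.08 and ran from -1.10 to 1.37, with 35 values above 0 and 49 below.

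Water stress itself, averaged over the 3 genotypes, called 0 of the 84 in limma, with and without the block. Over all probe sets it called 0% without the block and 0.00817% with it. Unadjusted p-values under 0.05 were found for 5 of the 84, 5.95%, against 4.28% of all, and with the block for 18, 21.4%, against 10.1%. The differences ran from -0.67 to 0.85 with a median of -0.03. The largest, Ta.8885.1.A1_at at 0.85 ± 0.33 (SE), and the smallest in p, Ta.6253.1.S1_at at 0.29 ± 0.08 (SE), both had an adjusted p of 1 in limma. The other members among the 5 smallest p-values were Ta.21049.1.S1_at at -0.60, Ta.19451.1.S1_at at -0.67 and TaAffx.80603.1.S1_at at -0.34. Within Pavon-TL the water stress difference had a median of -0.06 over the 84 and ran from -1.23 to 1.12.

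The rule fixed neither the sign nor the size of the difference between the other genotypes. Null Control minus Pavon76 had a median of -0.02, and limma called 0 of the 84, with and without the block. Over all probe sets 0.0049% were called without the block and 0.0147% with it. An unadjusted p under 0.05 was found for 6 of the 84, 7.14%, against 2.04% of all, and with the block for 14, 16.7%, against 5.16%. Null Control was lower by at least 0.5 in 9 of the 84 and higher by at least 0.5 in 2. The 5th to 95th percentile of this difference ran from -0.54 to 0.14 over the 84 and from -0.19 to 0.18 over all probe sets. The share of all probe sets beyond 0.5 is not given here.

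The 5 members with the smallest p in that comparison were all lower in Null Control, and none passed limma's adjusted threshold. Ta.25560.1.S1_at read 5.40, 5.61, 5.19 and 5.04 in Null Control, against 5.83, 5.82, 5.59 and 6.13 in Pavon76, so that the genotypes overlapped only at 5.61 and 5.59. Its Pavon-TL arrays read 3.72, 4.10, 3.41 and 3.81, and Null Control minus Pavon76 was -0.53 ± 0.15 (SE). The others were Ta.19451.1.S1_at at -0.84, TaAffx.23458.1.S1_at at -0.70, Ta.3104.1.S1_at at -0.54 and Ta.5029.2.A1_at at -0.48.

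A group of probe sets with large differences shared a high value on the second well-watered Null Control array. In 9 of the 84, 10.7%, this array lay at least 0.5 above the other 3 of its genotype, against 0.633% of all probe sets. No other array did so in more than 5 of the 84, but some also did so more often than in all probe sets. The first and second well-watered Pavon-TL arrays did so in 5 each, 5.95%, against 0.633% and 0.0915% of all. On the second well-watered Null Control array the steps were 1.25 in Ta.994.1.S1_at, 1.13 in Ta.994.1.S1_x_at, 1.12 in TaAffx.84394.1.S1_at, 1.07 in TaAffx.79196.1.S1_at and 0.96 in Ta.18949.1.S1_at. In these 5 that array lay above the highest Pavon76 array in 3 and below it in 2, and the other 3 Null Control arrays lay below all 4 Pavon76 arrays. Without that array, Null Control was lower than Pavon76 by at least 0.5 in 12 of the 84 instead of 9. This array was looked at after its values were seen, and its part in these differences was not tested.

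**Figure D5:**
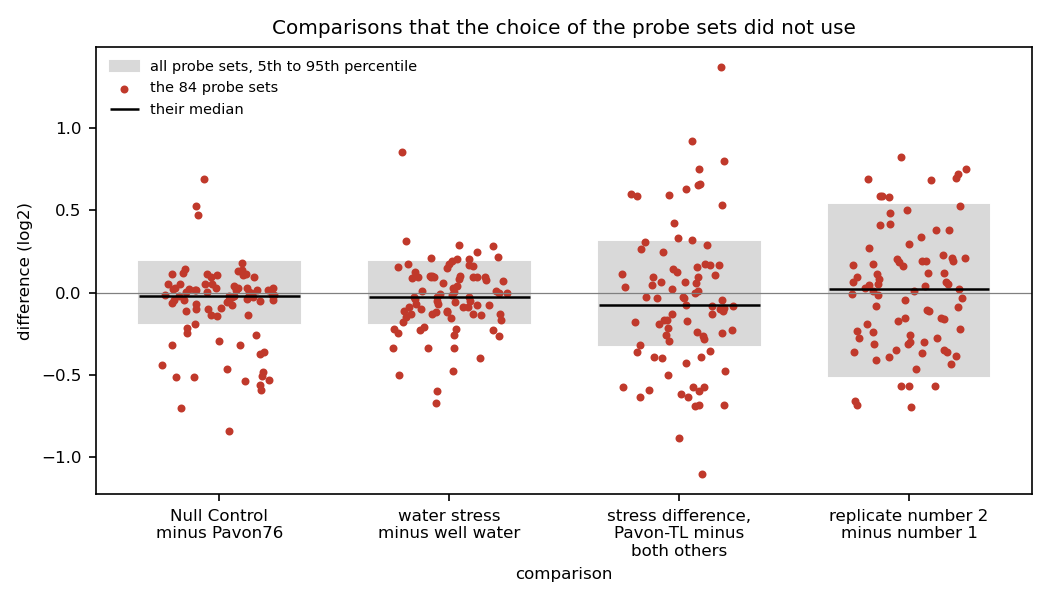
Differences of the 84 probe sets (red points, log2) in 4 comparisons that did not choose them, with their median as a bar and the 5th to 95th percentile of all probe sets in grey. All 4 medians lie between -0.08 and 0.03, and the widest range is that of the interaction, from -1.10 to 1.37.

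The replicate number went with shifts in many of these probe sets, but not evenly between genotypes. Number 2 minus number 1 was called in limma for 32 of the 84, where 27.8% of all probe sets were called. Of the 32, 14 were higher and 18 lower in number 2. That fit takes 1 shift for all genotypes. Over the 84, the shift in Pavon-TL correlated with that in Pavon76 at r = 0.38 and in Null Control at 0.27, against 0.82 between those 2. Over all probe sets these r were 0.81, 0.84 and 0.85. In the 21 with a difference of at least 4 they were 0.04, -0.02 and 0.90. The Pavon-TL mean lay below the median of all values in 20 of those 21 and below the first quartile in 11. Whether the low r goes with the low level of the signal was not tested. Ta.25243.1.A1_at read 6.35 and 6.27 in number 2 and 5.39 and 5.75 in number 1 in Pavon-TL. In Pavon76 it read 7.65 and 7.66 in number 2 and 6.97 and 7.06 in number 1, and in Null Control 7.74 and 7.67 in number 2 and 7.02 and 7.03 in number 1. The numbers did not overlap within any genotype, and the difference was 0.69 ± 0.07 (SE; limma adjusted p = 3.73e-05). Ta.7183.1.S1_at at 0.75, Ta.10531.2.S1_a_at at 0.72, Ta.15166.1.S1_at at 0.70 and TaAffx.113564.1.A1_at at 0.53 were also called higher in number 2.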

How the data were processed

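The authors deposited 1 table of log2 RMA values for 12 arrays. RMA is named in the submitters' processing notes, and its version is not given in the sources used here. The table held 61290 probe sets, of which 111 Affymetrix controls were left out. Detection calls and filters on dim probe sets were not applied. A low value does not show that a transcript was absent, and differences of dim probe sets are understated. Precision is limited by 12 arrays.

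Tests used limma 3.58.1 in R 4.3.3: 6 group means, contrasts and empirical Bayes, two-sided, with Benjamini-Hochberg adjustment over 61179 probe sets and calls below 0.05. The steps were tested on simulated data. For the tests across water conditions, 6 arrays were fitted alone. Arrays with the same replicate number deviated together (r between 0.606 and 0.795 in 15 of 15 pairs of groups, all above 0.1), which pairs the samples by number; the meaning of a number is not in the labels. Over the 84 probe sets alone these r ran from -0.00643 to 0.659. The fit with the number as a block was an alternative, beside leaving out arrays, other scalings, thresholds and filters.

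Genes came from the platform annotation of 2007 where it gives exactly 1 (1273 probe sets, 771 genes, 770 of them in the RefSeq table of IWGSC CS RefSeq v2.1, used for names and neighbours only). A list by chromosome was not used. Named probe sets are the annotated members, the 10 largest differences, 4 on each side of the threshold, the 3 lowest and 3 highest Pavon-TL means, the 3 largest Pavon-TL SDs, 5 by p in each comparison and the 5 clusters with most members. The probe sets, lists and rule were chosen with earlier results of these data known.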

Additional observations from a re-analysis of the deposited data

Results flagged for a closer look

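For the 42 probe sets named by rule, the 4 arrays of each genotype were searched for a single array far from its 3 companions. Chance finds one in about 1 of 20 groups of 4 independent values with a normal spread. The arrays here differ in water and replicate number, and some probe sets share a target, so that rate is only a guide. Such an array was found in 8 of 126 groups. In 3 of the 8 it was the second well-watered Null Control array: Ta.18949.1.S1_at read 12.45 there and 11.41 to 11.49 on the other 3, Ta.994.1.S1_at read 11.16 against 9.69 to 9.91, and Ta.994.3.S1_x_at read 4.78 against 3.77 to 3.94. In Pavon-TL, Ta.10531.1.S1_at read 4.07 on the first water stress array and 5.12 to 5.33 on the others, and Ta.6293.1.A1_at read 5.29 on the second well-watered array and 4.43 to 4.54 on the others. In Null Control, Ta.5029.2.A1_at read 6.84 on the second water stress array and 7.70 to 7.85 on the others, and TaAffx.38326.1.S1_at read 9.75 on the first well-watered array and 9.94 to 9.97 on the others. In Pavon76, Ta.20778.1.A1_s_at read 10.77 on the second water stress array and 10.97 to 10.98 on the others. The causes were not tested.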

How the results depend on the processing

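The number of probe sets meeting the rule was 127 with a difference of at least 0.5 and 51 with at least 2, by construction of the threshold, and between 82 and 89 when 1 array was left out. With the replicate number as a block, 78 of the 86 probe sets chosen under well water were called, against 49 without it. Of the 89 chosen under water stress, 83 were called, against 34 without it. The block changed no other call. The full rule had used the same arrays, so the calls among the 86 and the 89 are a description. Leaving out 1 array gave 18 to 28 and 6 to 15 of those calls, with fewer arrays in each fit, and at an adjusted p below 0.01 there were 28 and 12. At that threshold 16 of the 84 were called for the replicate number, against 32. No probe set among the 84 was called for Null Control against Pavon76, water stress or the interaction under any alternative run. Of 588 recomputed differences of the 42 named probe sets, 584 moved by less than 1 SD over the Pavon-TL arrays of that probe set. The other 4 moved more, 0 changed direction, and the largest shift was 0.40.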

Other observations

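The TaAffx numbers of several members lay close together. Of the 25 different TaAffx numbers among the 84 probe sets, 8 had another member's number within 10: 84389 and 84394, 105944 and 105947, 108612 and 108616, and 128828 and 128836. What an adjoining number means was not given in the sources used here, and the count was not tested. The pairs differed in size within themselves. TaAffx.108612.1.S1_at was 43.7-fold lower in Pavon-TL and TaAffx.108616.1.S1_at 10.4-fold, and TaAffx.105944.1.S1_s_at was 21.3-fold lower and TaAffx.105947.1.S1_at 4.52-fold.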
